A study of Mus musculus with 8 samples.

Results

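Glycosaminoglycans are long sugar chains of repeating disaccharides, most of them carried by proteoglycan core proteins. The genes described here make the chondroitin, dermatan and heparan sulfate chains and hyaluronan, supply the sulfate and sugar donors, and remove sulfate from the chains. They are a fixed list of 47 genes, found by symbol, and all 47 are among the 19201 genes of the deposited count table. In cartilage, chondroitin sulfate on aggrecan holds water and bears load. In bone and in the growth plate, heparan sulfate binds growth factors at the cell surface and in the matrix, and hyaluronan forms chains without a core protein.

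RNA-Seq had been made from cortical bone, ground whole, of C57BL/6J mice aged 6 weeks. There were 4 WT samples and 4 samples of the genotype Prx1Cre; Piezo1fl/fl, called *Piezo1*-deficient below and numbered replicates 1, 3, 4 and 5 in each genotype. In the latter, Cre driven in limb mesenchyme deletes the mechanosensitive channel gene *Piezo1* in osteoblasts, chondrocytes and other cells of that origin, but not in blood-derived osteoclasts. The labels do not give the sex of the mice, and they give neither the Cre and floxed status of the WT mice nor whether each sample was a separate animal, so a p-value measures the spread between these samples.

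Libraries held 11963536 to 14536106 counts. Levels are CPM, counts relative to the TMM-scaled library total, and errors of levels are SD over 4 libraries. The 4 values of a genotype are given in the order of replicates 1, 3, 4 and 5. The words rose and fell are kept for genes with an adjusted p under 0.05 in edgeR's quasi-likelihood test, over the 15318 genes tested. *Piezo1* itself fell to 138 ± 6.37 CPM from 205 ± 9.94 CPM in WT, with no overlap of the genotypes (log2 fold change -0.57 with SE 0.064, adjusted p = 0.0027). In tissue ground whole, fewer cells of a type and less RNA per cell cannot be told apart. All 5 osteocyte markers and all 8 osteoblast markers were detected. No osteocyte marker passed, and of the osteoblast markers *Bglap* and *Bglap2* rose, with log2 fold changes of 0.58 and 0.56. The osteoblast markers summed to 180779 to 220955 CPM in WT and 223775 to 320471 CPM in *Piezo1*-deficient libraries. None of 5 B lineage markers passed, though all 5 had an unadjusted p under 0.05, and their sums were 298 to 366 CPM and 109 to 264 CPM. Of 19 growth plate chondrocyte markers, 14 fell and none rose. Of 15 skeletal muscle markers, all rose, and of 9 osteoclast markers, 4 fell and none rose. The study itself reported more osteoclasts in bone sections of male mice of this genotype and age, by counts of cells rather than RNA. Of 10 tendon and periosteal fibroblast markers tested, 5 rose. The chondrocyte markers summed to 8263 to 12739 CPM in WT and 5477 to 6798 CPM in *Piezo1*-deficient libraries. Most of the *Piezo1*-deficient sum was *Col11a1*, which did not pass, so the sums understate the falls of the other markers. It had 4194 ± 460 CPM in WT and 5077 ± 575 CPM in *Piezo1*-deficient bone (n = 4). The muscle markers summed to 15.7 to 183 CPM and 529.7 to 5015 CPM, the osteoclast markers to 8711 to 9929 CPM and 5285 to 7644 CPM. No marker of these lists was at 0 in all libraries.

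Of the 47 genes, 43 passed the filter on low counts and 4 did not: *Ndst3*, *Has1*, *Has3* and *Arsj*. Among the 43, *Arsi*, *Arsb*, *Xylt1* and *Chst3* fell and *Chpf* rose in *Piezo1*-deficient bone. The 4 that fell are 9.30% of the 43, and 0.973% of all tested genes fell. The 1 that rose is 2.33%, and 2.04% of all tested genes rose. The other 38 did not pass, with log2 fold changes from -0.31 (*Extl1*) to 0.90 (*Hs6st2*), and 34 of them lay within 0.3 either way. The SE of these 38 ran from 0.066 to 0.59, with a median of 0.11. A p that misses the threshold does not show that a gene was the same in both genotypes. The median log2 fold change was 0.01 over the 43 and 0.00 over all tested genes. For the 19 chondrocyte markers it was -3.33.

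**Figure D1:**
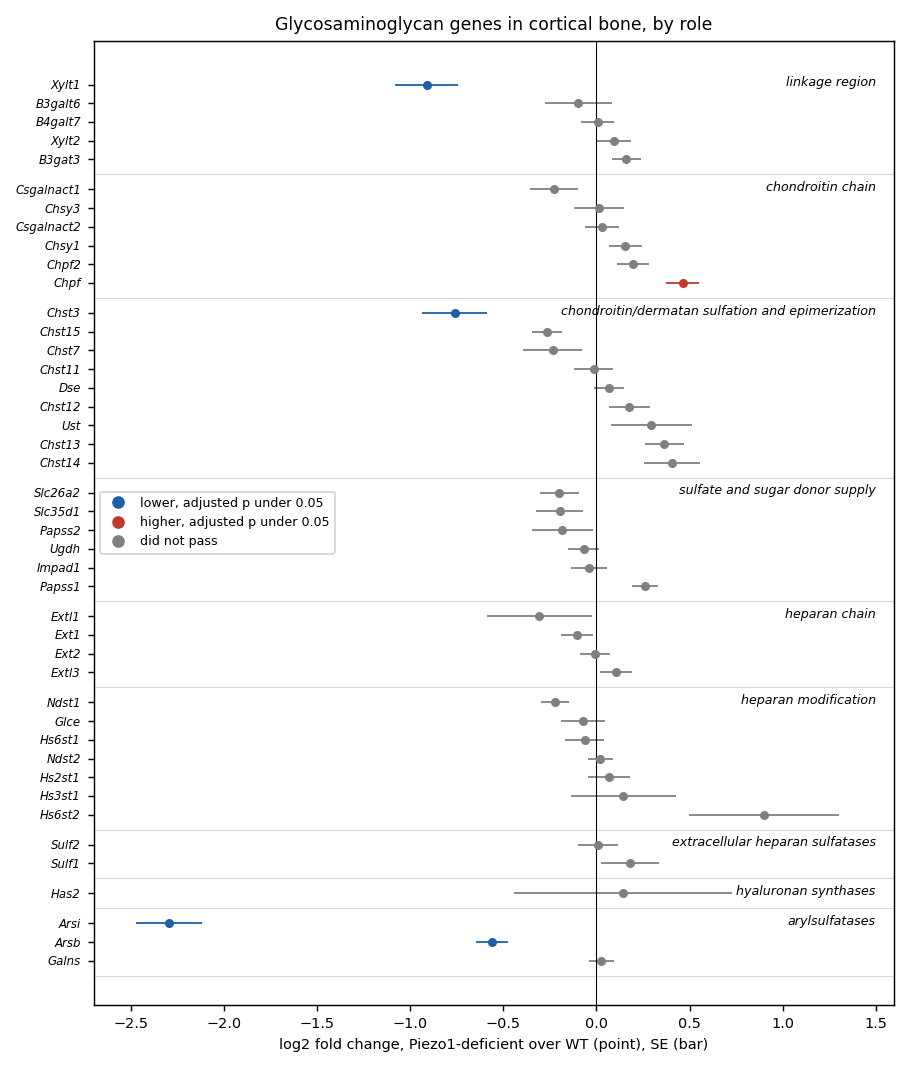
Log2 fold changes of the 43 tested genes (x axis, *Piezo1*-deficient over WT, bars are SE), grouped by role and ordered by value within each role. *Arsi* stands farthest left at -2.30, followed by *Xylt1*, *Chst3* and *Arsb*, and *Chpf* at 0.46 is the gene that passed the test to the right of 0.

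The genotypes did not overlap in CPM for 7 of the 43 genes (16.3%), the 5 above with *Chst13* and *Ndst1*. This held for 11.9% of all tested genes. An unadjusted p under 0.05 was reached by 12 of the 43 (27.9%) and by 18.4% of all tested genes.

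Promoter windows are shown for *Chst3*, *Arsb* and *Chpf*, 3 of the 5 genes that moved, because promoters are where a shared regulator would be looked for. No window was found for *Xylt1*. For *Arsi*, the gene with the largest fall, neither window nor position is reported here, for a reason unrelated to its values. RefSeq start sites on GRCm38.p6 gave windows of 300 bases, from 250 before the start to 50 after it. They lie at chr10:60219211-60219510 (minus strand), chr13:93771429-93771728 (plus strand) and chr1:75479422-75479721 (minus strand), and are written 5′ to 3′ along the gene. Letters of 3 motifs, chosen after the fold changes were known, were searched on both strands and are in capitals where found: GGAATG, bound by the TEAD partners of YAP, ACAAAG, a core of SOX sites, and TCACGTG, an E-box found at many lysosomal genes.
Chst3: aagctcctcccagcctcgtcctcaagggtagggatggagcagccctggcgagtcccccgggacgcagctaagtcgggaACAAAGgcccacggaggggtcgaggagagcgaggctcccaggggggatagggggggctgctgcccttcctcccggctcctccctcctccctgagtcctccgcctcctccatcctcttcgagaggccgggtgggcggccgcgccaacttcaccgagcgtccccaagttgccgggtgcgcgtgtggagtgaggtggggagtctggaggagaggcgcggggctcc
Arsb: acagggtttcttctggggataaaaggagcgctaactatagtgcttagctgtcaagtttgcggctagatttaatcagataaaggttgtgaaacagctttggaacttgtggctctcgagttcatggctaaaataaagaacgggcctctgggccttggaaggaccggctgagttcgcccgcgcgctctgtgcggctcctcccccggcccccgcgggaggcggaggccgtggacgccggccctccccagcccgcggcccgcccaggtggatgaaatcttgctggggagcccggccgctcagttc
Chpf: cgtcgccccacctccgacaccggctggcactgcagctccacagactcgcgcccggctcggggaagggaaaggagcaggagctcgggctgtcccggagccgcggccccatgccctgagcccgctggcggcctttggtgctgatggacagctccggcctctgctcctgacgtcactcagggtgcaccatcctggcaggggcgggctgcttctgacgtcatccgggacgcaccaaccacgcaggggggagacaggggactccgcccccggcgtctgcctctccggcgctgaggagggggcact

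The capitals in the *Chst3* window are the SOX letters, which begin at base -172 from the start site of that window. This RefSeq start lies 2854 bases inside the annotated gene, downstream of its outermost end, whereas the *Arsb* and *Chpf* windows lie at the ends of their genes. The *Arsb* and *Chpf* windows hold none of the 3. Of all 32851 promoter windows, 18.7% hold ACAAAG, 14.7% hold GGAATG and 3.77% hold TCACGTG. Windows were found for 34 of the 47 genes, 42 windows in all. Of these 42, 1 holds ACAAAG, 8 (of 7 genes) hold GGAATG and 2 hold TCACGTG. These are matches of letters, not binding sites. GC content was 70% for *Chst3*, 60.3% for *Arsb* and 71.7% for *Chpf*, with a median of 52.7% over all windows.

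On GRCm38.p6, RefSeq places *Xylt1* on chromosome 7 from 117380979 to 117667630, *Chpf* on chromosome 1 from 75474569 to 75479471, *Chst3* on chromosome 10 from 60181527 to 60222114 and *Arsb* on chromosome 13 from 93771679 to 93943016.

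Levels of different genes can be compared only per length. Per kb of exon in GENCODE M1, *Arsb* was highest in WT bone with 77.1 ± 6.63 CPM per kb. It stood clear of *B3gat3*, which completes the linkage sugars (36.0 ± 3.07 CPM per kb), and *Chst11*, a chondroitin 4-sulfotransferase (29.0 ± 4.56 CPM per kb). The latter pair differed by less than the sum of their SD. *Chsy1* (23.8 CPM per kb), *Papss1* (21.8), *Galns* (20.6) and *Ndst1* (20.1) followed, with neighbours in this order also closer than the sum of their SD. *Arsi* (8.73 CPM per kb) was 24th of the 47 in WT, and *Xylt1* (2.37 CPM per kb) 36th. *Ndst3*, *Arsj*, *Has3*, *Hs6st2* and *Has1* were the 5 lowest, at most 0.14 CPM per kb.

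**Figure D2:**
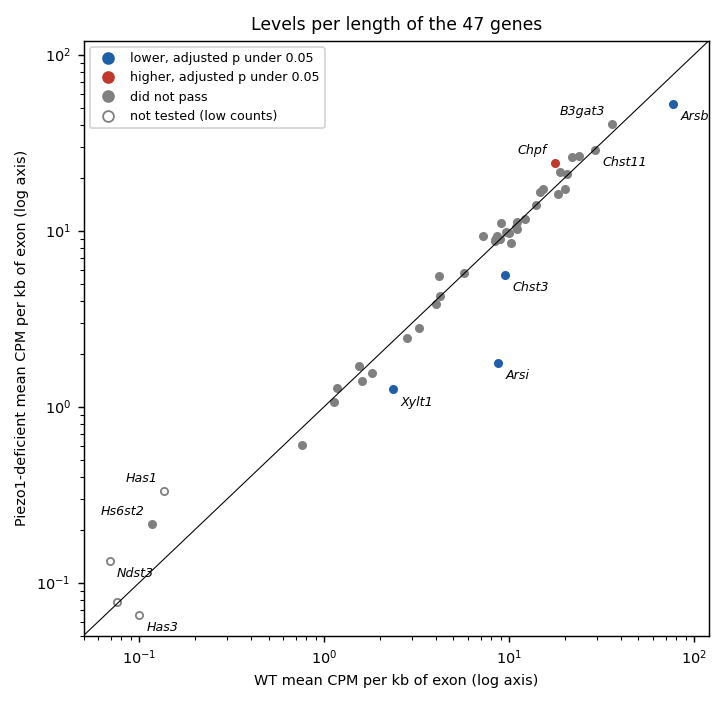
Mean level per kb of exon of each of the 47 genes in WT (x, log axis) and *Piezo1*-deficient bone (y, log axis), with the line of equal level. *Arsi* lies farthest below the line among the tested genes, at 8.73 against 1.78 CPM per kb, and *Arsb* fell but stayed the highest, at 52.3 CPM per kb.

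The linkage region is the short sugar bridge through which chondroitin and heparan chains attach to serine of the core protein, and its first xylose is added by *Xylt1* or *Xylt2*. *Xylt1* had 10.5, 8.67, 6.86 and 10.2 CPM in WT libraries against 3.80, 5.31, 4.98 and 5.04 CPM in *Piezo1*-deficient libraries. Every WT library was above every *Piezo1*-deficient library. *Xylt1* fell from 9.05 ± 1.66 to 4.79 ± 0.67 CPM (n = 4), 52.9% of the WT level (log2 fold change -0.91 with SE 0.17, adjusted p = 0.0205). The call was lost when WT replicate 3, WT replicate 5 or *Piezo1*-deficient replicate 4 was left out (largest adjusted p 0.0782). The log2 fold change of *Xylt1* was then -0.93, -0.85 and -0.93, in that order. Over all genes 54, 49 and 79 were called lower in these fits, against 149 in the main fit.

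*Xylt2*, the paralog, had a higher level per length and did not pass: it had 33.8 ± 3.41 CPM in WT and 36.1 ± 3.15 CPM in *Piezo1*-deficient bone (n = 4). The count ratio of *Xylt1* to *Xylt2* in a library does not depend on scaling. It ran from 0.207 to 0.342 in WT and from 0.0969 to 0.159 in *Piezo1*-deficient libraries, without overlap. A two-sided exact permutation test gave p = 0.0286, which for 4 and 4 libraries can go no lower, and adjusted p = 0.0857 over 6 ratios. An adjusted p under 0.05 would need most of the 6 ratios to be without overlap, so missing it says little about any 1 ratio. The rest of the bridge is built by galactosyltransferases I and II, *B4galt7* and *B3galt6*, and by *B3gat3*, which adds glucuronic acid. *B3gat3* had 63.3, 60.0, 54.3 and 52.7 CPM in WT and 62.0, 60.4, 70.8 and 64.0 CPM in *Piezo1*-deficient libraries, and the genotypes overlapped (log2 fold change 0.16 with SE 0.079, adjusted p = 0.312). *B4galt7* and *B3galt6* had log2 fold changes of 0.01 and -0.10, neither of which passed.

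Chondroitin chains are started by *Csgalnact1* and *Csgalnact2* and lengthened by *Chsy1* and *Chsy3* together with *Chpf* and *Chpf2*. Of these 6 genes, *Chpf* rose and the other 5 did not pass. *Chpf*, the chondroitin polymerizing factor, had 80.1, 74.9, 65.8 and 61.9 CPM in WT libraries against 100.3, 92.2, 92.4 and 105.0 CPM in *Piezo1*-deficient libraries. The lowest *Piezo1*-deficient library was above the highest WT library. It rose from 70.7 ± 8.30 to 97.5 ± 6.30 CPM (n = 4, log2 fold change 0.46 with SE 0.089, adjusted p = 0.0241).

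The rise of *Chpf* was not called when any of WT replicates 3, 4 and 5 or *Piezo1*-deficient replicates 4 and 5 was left out (largest adjusted p 0.0949). Over all genes 71 to 282 were called higher in these fits, against 313 in the main fit. The log2 fold change of *Chpf* stayed between 0.40 and 0.53 whichever library was left out. Some of its exons overlap those of *Obsl1* on the same strand in GENCODE M1. *Obsl1*, a gene of the cytoskeleton, had 50.3 ± 3.32 CPM in WT and 57.1 ± 3.79 CPM in *Piezo1*-deficient bone (n = 4, log2 fold change 0.18, adjusted p = 0.208). How its reads were shared with *Chpf* was not tested. In all, exons of 8 of the 47 genes overlap another gene model. *Arsb* is among them, with a non-coding gene on the opposite strand, and without strand in the library kit such reads cannot be told apart. *Chpf2* and *Sulf2* share exons with protein-coding genes of the opposite strand, *Smarcd3* and *Ncoa3*. These had log2 fold changes of 0.37 (adjusted p = 0.142) and 0.02 (adjusted p = 0.947), and how reads were shared was not tested. *Chpf2* had 108.3, 105.4, 95.7 and 97.0 CPM in WT and 135.1, 108.2, 108.0 and 114.5 CPM in *Piezo1*-deficient libraries (log2 fold change 0.20 with SE 0.085, adjusted p = 0.25), with a slight overlap. *Chsy1* (0.15), *Chsy3* (0.01), *Csgalnact1* (-0.23) and *Csgalnact2* (0.03) had small log2 fold changes that did not pass. *Csgalnact1*, the initiating enzyme best known from mouse cartilage, had 8.64 ± 1.15 CPM in WT and 7.37 ± 0.55 CPM in *Piezo1*-deficient bone (n = 4). Its count ratio to *Csgalnact2* overlapped between genotypes (two-sided exact permutation p = 0.229, adjusted p = 0.274 over 6 ratios).

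Sulfate is then placed on the chondroitin chain at carbon 6 by *Chst3* and *Chst7* and at carbon 4 by *Chst11*, *Chst12* and *Chst13*. *Chst3* fell, and none of the 3 genes for carbon 4 passed. *Chst3* had 56.7, 60.6, 68.0 and 61.4 CPM in WT libraries against 22.3, 43.2, 44.6 and 35.2 CPM in *Piezo1*-deficient libraries. The genotypes did not overlap, and *Piezo1*-deficient replicate 1 was the lowest. The mean went from 61.7 ± 4.67 to 36.3 ± 10.2 CPM (n = 4, log2 fold change -0.76 with SE 0.18, adjusted p = 0.0454).

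This call was close to the threshold. It was lost without any 1 library other than *Piezo1*-deficient replicate 1 (largest adjusted p 0.138), and under a stricter filter that kept genes averaging 5 CPM or more (adjusted p = 0.0549). The log2 fold change stayed between -0.87 and -0.59 whichever library was left out. *Chst7*, the other enzyme for carbon 6, had 7.22 ± 1.26 CPM in WT and 6.14 ± 0.82 CPM in *Piezo1*-deficient bone (n = 4, log2 fold change -0.24 with SE 0.16, adjusted p = 0.478).

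*Chst11*, the most abundant of the chondroitin sulfotransferases here per length, had 194.5, 141.5, 141.2 and 165.0 CPM in WT libraries against 161.6, 168.0, 146.6 and 158.9 CPM in *Piezo1*-deficient libraries. All *Piezo1*-deficient libraries lay inside the WT range (log2 fold change -0.02 with SE 0.10, adjusted p = 0.955). The ratio of *Chst3* to *Chst11* counts ran from 0.292 to 0.482 in WT and from 0.138 to 0.305 in *Piezo1*-deficient libraries, with an overlap (two-sided exact permutation p = 0.0571, adjusted p = 0.0857 over 6 ratios). *Chst13* had 13.2, 12.8, 10.6 and 11.2 CPM in WT and 13.8, 16.4, 15.8 and 15.4 CPM in *Piezo1*-deficient libraries. These did not overlap, but the gene did not pass over all genes (log2 fold change 0.37 with SE 0.11, adjusted p = 0.0950).

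*Chst15* adds a further sulfate to chondroitin already sulfated at carbon 4. It had 55.0 ± 3.13 CPM in WT and 45.7 ± 4.41 CPM in *Piezo1*-deficient bone (n = 4, log2 fold change -0.27 with SE 0.080, adjusted p = 0.104), and was called lower without *Piezo1*-deficient replicate 1 (adjusted p = 0.0210). The dermatan genes, the epimerase *Dse* and the sulfotransferase *Chst14*, had log2 fold changes of 0.07 and 0.41 that did not pass, nor did *Chst12* (0.18). *Ust*, which sulfates uronic acid, varied widely within each genotype, from 23.5 to 48.2 CPM in WT and from 33.6 to 62.5 CPM in *Piezo1*-deficient libraries.

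**Figure D3:**
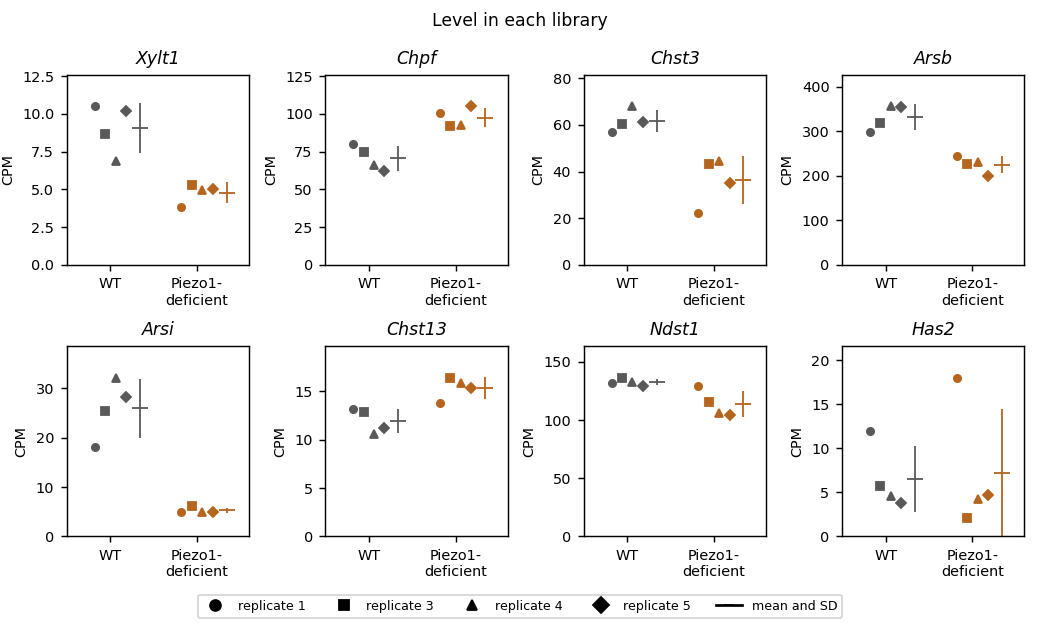
Level of 8 genes in each library (y axis, CPM from 0; marker shape is the replicate number, the side bar is mean and SD over 4 libraries). The first 7 are the tested genes whose genotypes did not overlap. *Has2* is shown for its spread, with 18.01 CPM in *Piezo1*-deficient replicate 1.

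The donors of sulfate and sugar are shared by all chain types. *Slc26a2* carries sulfate into the cell, *Papss1* and *Papss2* turn it into the active donor PAPS, *Impad1* clears the by-product of sulfation, *Slc35d1* carries nucleotide sugars into the endoplasmic reticulum, and *Ugdh* makes UDP-glucuronic acid. None of these 6 passed the test, and 1 had an unadjusted p under 0.05. That was *Papss1*, which had 56.7 ± 2.92 CPM in WT and 67.9 ± 4.8 CPM in *Piezo1*-deficient bone (n = 4, log2 fold change 0.26 with SE 0.070, adjusted p = 0.0796). Its genotypes overlapped by a narrow margin, and the Wald test of DESeq2 called it higher (adjusted p = 0.0488; 0.0796 in edgeR).

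*Papss2*, the form with a large part in cartilage in mouse and human, had 90.6, 58.4, 52.3 and 66.6 CPM in WT and 72.7, 52.8, 51.8 and 58.8 CPM in *Piezo1*-deficient libraries (log2 fold change -0.18 with SE 0.17, adjusted p = 0.609). Replicate 1 was the highest in each genotype. The ratio of *Papss2* to *Papss1* counts ran from 0.957 to 1.49 in WT and from 0.750 to 1.03 in *Piezo1*-deficient libraries (two-sided exact permutation p = 0.0571, adjusted p = 0.0857 over 6 ratios). *Ugdh* had 86.6, 80.0, 80.4 and 83.9 CPM in WT and 89.4, 82.5, 68.4 and 75.3 CPM in *Piezo1*-deficient libraries, with overlap (log2 fold change -0.07 with SE 0.084, adjusted p = 0.716). *Slc26a2* (-0.20), *Slc35d1* (-0.20) and *Impad1* (-0.04) had log2 fold changes below 0 that did not pass.

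Heparan chains are lengthened by the *Ext1* and *Ext2* complex, and *Extl3* adds their first glucosamine. *Ndst1* and its relatives then exchange acetyl groups for sulfate, *Glce* epimerizes the uronic acid, and the 2-O-, 6-O- and 3-O-sulfotransferases finish the pattern, which *Sulf1* and *Sulf2* trim outside the cell. None of the 13 heparan genes tested of 14 listed was called by edgeR or by the Wald test of DESeq2, and 2 had an unadjusted p under 0.05. *Ext2* had 98.3, 96.6, 90.7 and 87.2 CPM in WT and 106.1, 84.4, 90.5 and 90.2 CPM in *Piezo1*-deficient libraries (log2 fold change -0.01 with SE 0.081, adjusted p = 0.978). *Ext1* had the tightest WT levels of the 43 genes, 88.8 ± 1.06 CPM (n = 4), and 82.7 ± 10.8 CPM in *Piezo1*-deficient bone.

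*Ndst1* had 131.8, 136.2, 133.0 and 129.8 CPM in WT libraries against 128.9, 115.3, 106.3 and 104.7 CPM in *Piezo1*-deficient libraries. The genotypes did not overlap, by less than 1 CPM between *Piezo1*-deficient replicate 1 and WT replicate 5. It did not pass (log2 fold change -0.22 with SE 0.075, adjusted p = 0.142), and it was called lower without *Piezo1*-deficient replicate 1 (adjusted p = 0.0278). The ratio of *Ndst1* to *Ndst2* counts ran from 3.22 to 3.73 in WT and from 2.63 to 3.13 in *Piezo1*-deficient libraries, without overlap (two-sided exact permutation p = 0.0286, adjusted p = 0.0857 over 6 ratios). *Hs6st2*, the other heparan gene with an unadjusted p under 0.05, was near the limit of detection, with 0.911 ± 0.49 CPM in WT and 1.69 ± 0.76 CPM in *Piezo1*-deficient bone (n = 4, adjusted p = 0.268).

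*Sulf1* had 79.3, 66.3, 62.0 and 61.3 CPM in WT and 104.6, 68.8, 71.0 and 60.7 CPM in *Piezo1*-deficient libraries, with overlap (log2 fold change 0.18 with SE 0.16, adjusted p = 0.586). Without *Piezo1*-deficient replicate 1 its log2 fold change was -0.01. *Sulf2* had a log2 fold change of 0.01, and the ratio of *Sulf1* to *Sulf2* counts overlapped between genotypes (two-sided exact permutation p = 0.429, adjusted p = 0.429 over 6 ratios). The remaining genes of the group, *Extl1*, *Extl3*, *Ndst2*, *Hs2st1*, *Hs6st1*, *Hs3st1* and *Glce*, had log2 fold changes from -0.31 to 0.14. *Ndst3*, which was not tested, had 3 to 10 counts in WT and 8 to 14 in *Piezo1*-deficient libraries. In CPM, 0.235 to 0.648 and 0.676 to 1.03, its genotypes did not overlap, by a narrow margin at very low counts.

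Hyaluronan is spun out at the plasma membrane by *Has1*, *Has2* and *Has3*. *Has2* alone was tested. It had 11.99, 5.75, 4.60 and 3.83 CPM in WT libraries against 18.01, 2.07, 4.25 and 4.69 CPM in *Piezo1*-deficient libraries. Replicate 1 was the highest in each genotype, and the WT range lay inside the *Piezo1*-deficient range (log2 fold change 0.14 with SE 0.59, adjusted p = 0.928). Among the untested members, *Has1* had between 1 and 15 counts in a library and *Has3* between 2 and 12.

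Sulfatases of the arylsulfatase family remove sulfate from sugars, most of them in the lysosome. *Arsi*, arylsulfatase I, was the gene of the 47 with the largest fall among those tested. Counts of *Arsi* amounted to 231, 348, 496 and 363 in WT libraries against 59, 83, 69 and 57 in *Piezo1*-deficient libraries. As CPM these were 18.1, 25.3, 32.1 and 28.4 in WT and 4.99, 6.12, 5.05 and 4.96 in *Piezo1*-deficient bone, so the lowest WT library was well above all *Piezo1*-deficient libraries. It fell from 26.0 ± 5.94 to 5.28 ± 0.56 CPM (n = 4), 20.3% of the WT level (log2 fold change -2.30 with SE 0.18, adjusted p = 1.76e-04). Its natural substrate is not established.

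*Arsb*, the lysosomal enzyme that takes sulfate from carbon 4 of chondroitin and dermatan sulfate, had 297, 319, 356 and 354 CPM in WT replicates 1, 3, 4 and 5. The *Piezo1*-deficient replicates had 245, 225, 231 and 199 CPM, all below WT. It fell from 331 ± 28.5 to 225 ± 19.1 CPM (n = 4), 67.9% of the WT level (log2 fold change -0.56 with SE 0.086, adjusted p = 0.00995). *Arsi* and *Arsb* passed in each of the 15 alternatives tried, with adjusted p up to 0.00338 and 0.0431. *Galns*, the lysosomal enzyme for sulfate at carbon 6, had 51.5 ± 2.04 CPM in WT and 52.4 ± 3.43 CPM in *Piezo1*-deficient bone (n = 4, log2 fold change 0.03 with SE 0.066, adjusted p = 0.876). *Arsj*, a relative of *Arsi*, had between 2 and 6 counts in a library.

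The 5 genes that moved were not all ordered alike over the libraries. The summed level of all 47 genes overlapped between genotypes in TMM-scaled CPM, whereas their share of the raw library totals did not, with 0.227% to 0.238% in WT and 0.195% to 0.212% in *Piezo1*-deficient libraries. In WT, *Arsi*, *Arsb* and *Chst3* were lowest in replicate 1, next in replicate 3, then 5, and highest in replicate 4. The sum of the 9 osteoclast markers came in that same order (8711, 9318, 9470 and 9929 CPM). So did the sum of 4 endothelial markers (420.8, 437.8, 438.1 and 448.5 CPM), none of which passed, so the order was not particular to osteoclast markers. In the *Piezo1*-deficient libraries, *Arsb* and the osteoclast sum shared another order, with replicate 5 lowest (5285 CPM for the sum), then 3 (5935 CPM) and 4 (7469 CPM), and 1 highest (7644 CPM), while *Chst3* was lowest in replicate 1. *Arsi* did not follow that order there, with replicate 3 highest (6.12 CPM) and the others between 4.96 and 5.05 CPM. The chondrocyte sum was highest in replicate 1 in each genotype, but in *Piezo1*-deficient libraries it was mostly *Col11a1*, which did not pass. *Acan*, a marker that fell, was highest in replicate 1 in WT (726 CPM). Among the *Piezo1*-deficient libraries it was highest in replicate 5 (68.4 CPM, against 60.9 CPM in replicate 1). *Xylt1* was highest in replicate 1 in WT and lowest in replicate 1 among the *Piezo1*-deficient libraries. The endothelial sum, like that of osteoclast markers, was lowest in replicate 5 (385 CPM) and highest in replicate 1 (467 CPM) among the *Piezo1*-deficient libraries. *Chst3* and the B lineage sum were lowest in replicate 1 and highest in replicate 4 in each genotype. The neutrophil sum was lowest in replicate 1 in each genotype too, and no other marker list was. These are orders of 4 libraries, given as a description, and the part of any cell type in the falls was not tested.

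**Figure D4:**
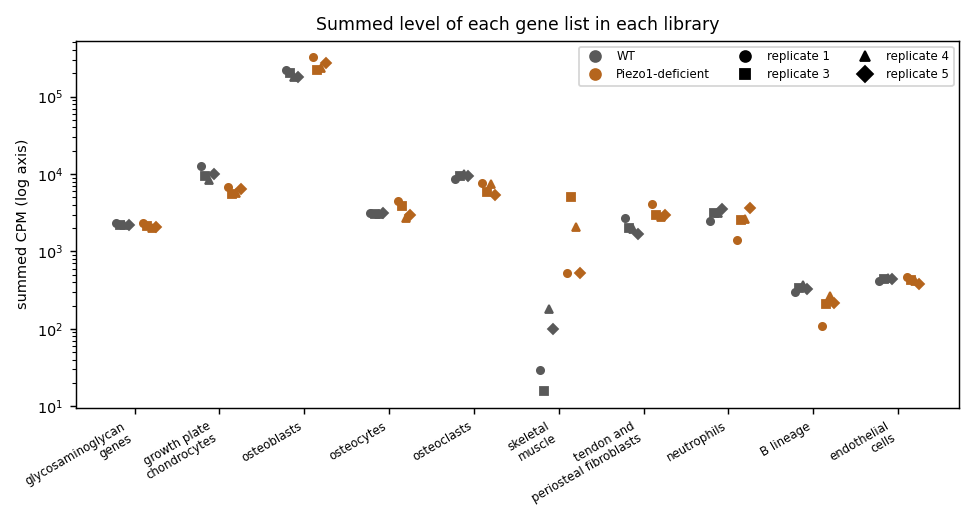
Summed CPM (y, log axis) of the 47 glycosaminoglycan genes and of each cell type marker list in the 4 WT (grey) and 4 *Piezo1*-deficient (brown) libraries, with marker shape for the replicate number. The glycosaminoglycan sum lay between 2180 and 2304 CPM in WT and between 2023 and 2303 CPM in *Piezo1*-deficient libraries, while the sums for chondrocytes, osteoblasts, osteoclasts, muscle, tendon and periosteal fibroblasts and B lineage were apart by genotype.

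A second list held 44 symbols of further genes of the same pathways, of which 40 were in the table and 37 were tested. *Hyal1*, *Cemip* and *Hs3st3b1* fell and none rose, with 2 higher at an unadjusted p under 0.05 and none called higher by DESeq2. Over all tested genes 0.973% fell and 2.04% rose. *Hyal1*, a lysosomal hyaluronidase, went from 24.2 ± 1.56 to 16.8 ± 2.70 CPM (n = 4, log2 fold change -0.53 with SE 0.11, adjusted p = 0.0342). *Cemip*, which takes part in hyaluronan breakdown, went from 131 ± 6.56 to 98.0 ± 6.90 CPM (n = 4, log2 fold change -0.42 with SE 0.071, adjusted p = 0.0154). *Hs3st3b1*, a heparan 3-O-sulfotransferase, was low, at 4.04 ± 0.64 CPM in WT and 2.15 ± 0.50 CPM in *Piezo1*-deficient bone (n = 4, log2 fold change -0.91 with SE 0.21, adjusted p = 0.0484). With any 1 library other than *Piezo1*-deficient replicate 1 left out, 0 to 2 of the list were called lower, and 4 were without that library.

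Grouped by function after their values were seen, and so with no test, 16 of these 37 genes act in chain breakdown and 13 of the 16 had log2 fold changes below 0 (median -0.13). The 3 above 0 were *Arsk*, *Ids* and *Arsg*. The other 21 had a median of 0.02, with 9 below 0. For 6 of the breakdown genes the highest *Piezo1*-deficient value was under the lowest WT value: *Hyal1*, *Cemip*, *Gusb*, *Glb1*, *Hexa* and *Hyal3*. Over all tested genes this held for 5.27%, and nothing is read from the count in a group formed after its values were seen. *Gusb* (adjusted p = 0.0571) and *Glb1* (adjusted p = 0.0580), the lysosomal glucuronidase and galactosidase, lay just outside the threshold. Osteoclast markers, whose sums are given above, were lower in the same libraries, and their part in these values was not tested.

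**Figure D5:**
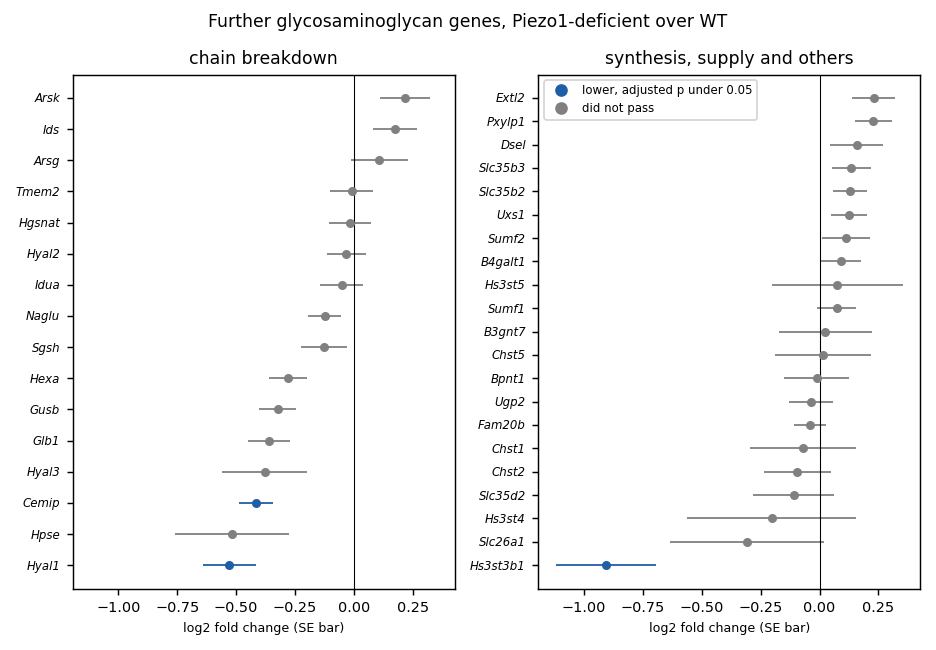
Log2 fold changes (x axis, *Piezo1*-deficient over WT, bars are SE) of the 37 further genes tested, with 16 genes of chain breakdown on the left and 21 others on the right, ordered by value. *Hyal1*, *Cemip* and *Hs3st3b1* passed the test, all to the left of 0.

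Of 22 proteoglycan core protein genes tested, 4 rose and 2 fell, and of all tested genes 2.04% rose and 0.973% fell. *Acan* and *Epyc*, the cartilage cores that carry chondroitin or dermatan chains, fell, with log2 fold changes of -3.06 and -4.82. *Dcn*, *Bcan*, *Gpc3* and *Spock2* rose, with log2 fold changes of 0.52, 0.68, 0.89 and 1.56.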

How the data were processed

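RNA-Seq counts of cortical bone were analysed for 4 WT and 4 *Piezo1*-deficient samples. The deposited table holds whole-number read counts per gene, which the authors left without normalization. Libraries were made with a TruSeq RNA kit. Per the submitters' processing notes the tool was HISAT2 and the build GRCm38, while the methods of the study name TopHat and mm9. The counter and annotation are not given in the sources used here, so reads of overlapping genes could not be reassigned. The authors' own fold changes, p-values and FDR in the table were not used. All sample columns were matched to samples by their descriptions.

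Counts were analysed with edgeR 4.0.16 in R 4.3.3 (filterByExpr, TMM factors from 0.888 to 1.07, quasi-likelihood F test, Benjamini-Hochberg over 15318 genes, limma 3.58.1 loaded). The SE is the absolute log2 fold change divided by the square root of F. The biological coefficient of variation was 13.1%. Totals of 11963536 to 14536106 counts set the counting precision. Ratios used counts plus 0.5 and a two-sided exact permutation test over 70 arrangements. The tests were run first on simulated data.

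Of the second list, 2 genes are not reported here. The genes and lists were chosen with earlier results of these data known. Genes given in every library were those called, those uncalled with no overlap and an unadjusted p under 0.05, and the one of highest mean CPM in each role group, which need not be the highest per length. *Papss2*, *Obsl1*, *Smarcd3*, *Ncoa3* and the uncalled further genes were named later, with their values known. Alternatives were size factors of DESeq2 1.42.0, library sizes without *Col1a1*, *Col1a2* and *Sparc*, no filter, a mean of at least 5 CPM, the DESeq2 Wald test, a replicate block, and leaving out each library. Leaving out *Piezo1*-deficient replicates 1 and 3 together was added after the data were seen. Exon lengths came from GENCODE M1 on NCBIM37, in which all 47 genes were matched, and promoters from RefSeq on GRCm38.p6.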

Additional observations from a re-analysis of the deposited data

Results flagged for a closer look

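*Arsi* in *Piezo1*-deficient libraries is listed because replicate 3 (6.12 CPM) stood apart from the other 3, which lay between 4.96 and 5.05 CPM. Its gap to the nearest was 0.916 of the range of the 4 libraries. *Has2* in *Piezo1*-deficient libraries is listed because replicate 1 (18.01 CPM) stood apart from the other 3, the highest of which had 4.69 CPM, a gap of 0.835 of the range. With 28 groups of 4 libraries examined, chance alone gives such a gap in about 1 group in 20.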

How the results depend on the processing

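Of 210 alternative values for the 14 genes given in every library, 179 kept their direction and call. Of the 47 genes, those called higher were 2 with the DESeq2 Wald test, and 0 to 1 with 1 library left out. Those called lower were 2 to 6 with 1 library left out, the fewest when WT replicate 3, WT replicate 5 or *Piezo1*-deficient replicate 4 was out. With *Piezo1*-deficient replicates 1 and 3 left out, 6 were lower and 1 higher. Further genes called lower were 6 with the DESeq2 Wald test, 5 with library sizes that leave out *Col1a1*, *Col1a2* and *Sparc*, 5 with the replicate block and 0 to 4 with 1 library left out. *Chst3* was not called under the stricter filter at 5 CPM (log2 fold change -0.76). The log2 fold changes of *Chst11* (-0.073 to 0.090), *Ext2* (-0.080 to 0.031), *Sulf1* (-0.010 to 0.27) and *Has2* (-0.84 to 0.60) changed sign with 1 library left out, and none of them was called. With *Piezo1*-deficient replicates 1 and 3 left out, *Sulf1* had -0.031 and *Has2* -0.54. Same-numbered libraries of the genotypes correlated by 0.33, -0.22, 0.17 and -0.01 in their deviations from the group means. These values do not settle whether the numbers are pairs, and the main fit did not take them as pairs. With a replicate block 1 of the 47 genes was higher and 4 lower, and *Has2* had a log2 fold change of -0.066, while over all genes 506 were higher and 320 lower (313 and 149 without the block). The DESeq2 Wald test called 592 genes higher and 358 lower, and with 1 library left out 71 to 415 were higher and 49 to 271 lower. Other scalings moved the median log2 fold change of all genes by at most 0.011. The cause of these changes was not tested. Low counts limit *Has1*, *Has3*, *Arsj* and *Ndst3*.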
